A study of Mus musculus with 30 samples.

Results

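The genes of the contractile actin cytoskeleton described here are 34 actins, calponins, myosins, tropomyosins, LIM-domain proteins and other filament proteins, with the transcription factor gene Srf. They were taken from a list of symbols, and 33 of the 34 were in the table of 12016 genes with read counts. The exception was Cnn1, which had 3 to 98 reads in a library. The cells were 3T3-L1, an established line of mouse fibroblasts with the capacity to form adipocytes, kept as preadipocytes. The Kdm5c siRNA groups had been transfected while sub-confluent with 50 nM of an siRNA against Kdm5c, the gene of an X-linked demethylase of histone H3. The scramble groups had been given 50 nM of a non-targeting siRNA with the same lipid reagent, so every group was transfected and none was left untreated. RNA was taken 24, 48 and 72 h later, on days −2, −1 and 0 counted to the start of differentiation, from 5 libraries per siRNA and day, 30 in all. Whether replicates came from separate cultures is not in the labels, so a p reflects only how far these libraries vary, and that variation may be technical.

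Actin filaments become contractile when myosin II pulls on them, and in fibroblasts such filaments are bundled into stress fibres. Tropomyosins, caldesmon and calponins lie along the filament and set how myosin reaches it, and the phosphorylation of the myosin regulatory light chain by myosin light chain kinase switches the motor on. Many of these genes are targets of the serum response factor SRF, which binds CArG boxes in their promoters. SRF is driven by MRTF coactivators that leave the cytoplasm when free actin monomer runs low. Preadipocytes are rich in stress fibres and take their actin network apart as they become adipocytes, whereas muscle-type actin and transgelin mark myofibroblasts and smooth muscle cells.

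Kdm5c siRNA cells had more transcript of most of these genes than scramble cells on every day, and the largest differences were in genes that mark smooth muscle and myofibroblasts. Actg2, Tagln and Myl9 were 2.41, 1.97 and 1.81 times as high on day 0 in the fitted model, while cytoplasmic actins, tropomyosins and caldesmon were higher by under 1.2-fold. Mylk, the gene of myosin light chain kinase, went the other way. Other smooth muscle genes did not all follow: Smtn was not called on day 0, and Csrp2 was lower on day −2 and higher on day 0. Over the same days most of the genes declined: in scramble cells 27 of the 33 genes were lower on day 0 than on day −2. The libraries are bulk RNA, in which fewer cells of a type and less RNA per cell cannot be told apart.

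Values are given as CPM, counts scaled to a common library total, and a gene was called where edgeR's quasi-likelihood test gave an adjusted p (Benjamini-Hochberg over all genes tested) under 0.05. In the siRNA comparisons, a gene that rose or fell was called higher or lower with Kdm5c siRNA than with scramble on the same day. On day −2, 20 of the 33 genes rose and 2 fell, where 11.2% of all 12016 genes rose and 11.8% fell. On day −1, 20 rose and 1 fell, beside 18.8% and 16.8% of all genes. On day 0, 22 rose and 2 fell, beside 19.2% and 15.7% of all genes. The median log2 fold change (Kdm5c siRNA over scramble) of the 33 genes was 0.08, 0.10 and 0.11 on the 3 days, and that of all genes was within 0.003 of 0. The libraries of the siRNA groups did not overlap in 20, 16 and 18 of the 33 genes on days −2, −1 and 0, beside 16.1%, 22.3% and 21.7% of all genes. Most of these differences were small: 3 genes passed 1.5-fold on day −1, namely Actg2, Tagln and Myl9, where 1.23% of all genes did so in either direction. On day 0 the same 3 were joined by Lmod1 and Synpo2, beside 1.74% of all genes. The genes higher on all 3 days numbered 14: Acta2, Actb, Actg1, Actg2, Cald1, Cnn2, Myl6, Myl9, Palld, Synpo2, Tagln, Tpm1, Tpm2 and Tpm4, beside 5.27% of all genes. In 11 of them the groups did not overlap on any day, beside 2.36% of all genes, the exceptions being Cnn2, Myl6 and Synpo2. Acta1, Csrp1, Myh9 and Pfn1 were called on no day.

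**Figure D1:**
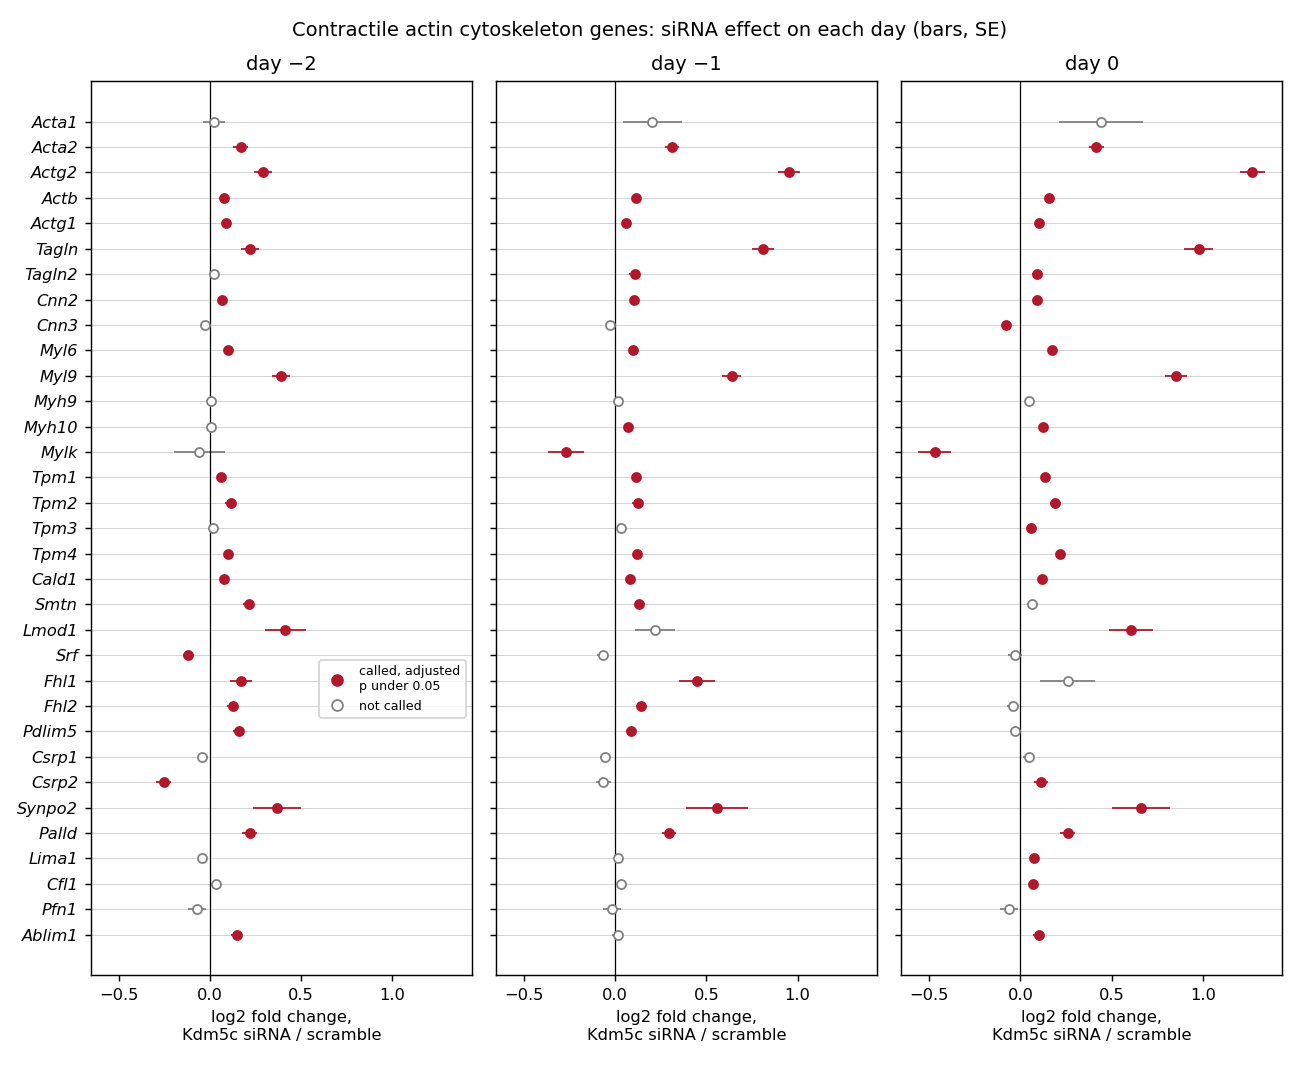
Log2 fold change, Kdm5c siRNA over scramble, of the 33 genes on days −2, −1 and 0, with bars for the SE, filled points for genes called at an adjusted p under 0.05 and open points for the others. Most points lie right of 0 on each day, Actg2, Tagln and Myl9 lie farthest right on days −1 and 0, and Mylk lies left of 0 on both of those days.

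The libraries had 25217905 to 33725717 reads, so 3 reads, the limit that a count of 0 allows, are 0.089 to 0.119 CPM (counting error only). Kdm5c itself was at 23.3 to 26.7, 29.9 to 39.3 and 49.2 to 55.1 CPM in Kdm5c siRNA libraries of days −2, −1 and 0, against 154.8 to 159.5, 186.6 to 193.8 and 204.1 to 216.5 CPM in scramble libraries, which left 16.2%, 18.9% and 25.2%. All 8 fibroblast and preadipocyte markers examined were expressed, while Myh11 reached at most 0.722 CPM and Myocd, the smooth muscle coactivator, had 1 read in the 30 libraries together. Kdm5c siRNA replicate 2 of day −2 deviated from its group by 0.12 on the log2 scale over all genes (root mean square), the other 29 libraries by 0.0622 to 0.0986. Over the 33 genes alone that library deviated by 0.0669, and scramble replicate 5 of day −1 deviated most, by 0.1568. On day −1, scramble replicates 1, 2 and 3 had been set apart from replicates 4 and 5 in an earlier analysis of these data. Without those 3 libraries, 15 of the 33 genes rose on day −1 and the calls of Actg1, Tagln2, Myh10, Fhl1, Fhl2, Synpo2 and Mylk were lost, while that of Lmod1 was gained.

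The CArG box, the site of SRF, is the element through which SRF acts on many genes of this kind, so the stretches that hold it are shown. RefSeq promoters (GRCm38.p6), 250 bases before to 50 bases after a RefSeq start, were in hand for 30 of the 34 genes, all but Actg2, Actb, Tagln and Csrp2. A RefSeq start can lie inside the gene as GENCODE gives it. That holds for every window shown but that of Acta1. The letters in capitals also lie inside the gene for Mylk, Lima1, Fhl1, Myl6 and both Fhl2 sites. Those of Acta1, Actg1, Cnn2, Myl9 and Srf lie outside it. A CArG box (exactly CCWWWWWWGG with W for A or T, 10 bases, both strands searched) was found in 9 of the 30. It was found in 1.81% of 27025 genes with such promoters or 1.53% of the 9075 that were tested here. Srf and Fhl2 had 2 sites each. The boxes are in capitals with 10 bases on each side, written 5′ to 3′ on the gene's strand.
Acta1, chr8:123894829-123894858, minus strand: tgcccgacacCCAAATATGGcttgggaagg
Actg1, chr11:120348566-120348595, minus strand: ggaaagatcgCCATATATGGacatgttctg
Cnn2, chr10:79988534-79988563, plus strand: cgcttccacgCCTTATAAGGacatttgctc
Myl6, chr10:128493040-128493069, minus strand: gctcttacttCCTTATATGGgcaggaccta
Myl9, chr2:156775293-156775322, plus strand: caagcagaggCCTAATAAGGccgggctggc
Srf, chr17:46556225-46556254, minus strand: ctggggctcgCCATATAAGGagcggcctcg
Srf, chr17:46556205-46556234, minus strand: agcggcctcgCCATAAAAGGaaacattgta
Fhl1, chrX:56779571-56779600, plus strand: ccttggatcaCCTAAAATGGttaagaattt
Fhl2, chr1:43196838-43196867, minus strand: catttagagaCCAAAAAAGGcttgcaggag
Fhl2, chr1:43163973-43164002, minus strand: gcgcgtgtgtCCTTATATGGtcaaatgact
Lima1, chr15:99820177-99820206, minus strand: ctcactttgtCCTTATAAGGctatcctgtt
Of these 9 genes, Actg1, Cnn2, Myl6, Myl9 and Lima1 were higher in Kdm5c siRNA cells on day 0, 5 in all, and of the 20 tested genes with a promoter but no exact box in it, 13 were higher. Boxes with a mismatch or outside the window were not searched for, so these 20 genes, Acta2 among them, may still have CArG boxes. A second element of muscle promoters, MCAT (CATTCC, both strands searched), was in 12 of the 30 genes, beside 16.6% of all genes with promoters. Of these 12, Acta2, Tagln2, Myh10, Tpm1, Cald1, Lmod1, Palld and Ablim1 were higher on day 0. Mylk was lower, and Acta1, Smtn and Pfn1 were not called. The whole windows of Myl9 and Mylk are given because Myl9 and the gene of its kinase moved in opposite directions. Capitals mark the CArG box of Myl9, 161 bases before the start, and the MCAT letters of Mylk, 158 bases before the start. The part of either element in these directions was not tested.
Myl9, chr2:156775214-156775513, plus strand: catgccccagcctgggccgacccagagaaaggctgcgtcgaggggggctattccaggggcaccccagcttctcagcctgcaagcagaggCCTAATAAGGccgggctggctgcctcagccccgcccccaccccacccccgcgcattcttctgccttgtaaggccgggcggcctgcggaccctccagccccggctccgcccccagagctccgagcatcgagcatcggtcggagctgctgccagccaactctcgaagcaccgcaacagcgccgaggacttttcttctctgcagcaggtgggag
Mylk, chr16:34784700-34784999, plus strand: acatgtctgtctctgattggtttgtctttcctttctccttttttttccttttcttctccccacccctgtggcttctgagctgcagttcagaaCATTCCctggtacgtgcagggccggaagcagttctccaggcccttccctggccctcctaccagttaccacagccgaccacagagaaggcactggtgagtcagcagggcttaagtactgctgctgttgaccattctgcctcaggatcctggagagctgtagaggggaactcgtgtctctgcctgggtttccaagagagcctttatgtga
These matches describe the letters of the windows only, and binding was not measured.

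Among the actins, Acta2 and Actg2 had the largest called differences on each day, and the third muscle type, Acta1, was not called. Acta2, smooth muscle alpha-actin, is the actin of myofibroblast stress fibres (GRCm38 chromosome 19, 34241090 to 34255590, minus strand). On day −2 Acta2 was at 2776, 2821, 2817, 2740 and 2836 CPM in the Kdm5c siRNA libraries, against 2405, 2533, 2429, 2483 and 2649 CPM in the scramble libraries. On day −1 it was at 1074, 1002, 1086, 1102 and 1196 CPM in the Kdm5c siRNA libraries, against 902, 930.4, 869, 862 and 844 CPM in the scramble libraries. By day 0 it had 715, 668, 688, 728 and 710.4 CPM in the Kdm5c siRNA libraries, against 562, 502, 545, 513 and 514 CPM in the scramble libraries. Every Kdm5c siRNA library lay above every scramble library of its day. The log2 fold changes of Acta2 were 0.17 (SE 0.04, adjusted p = 0.00114) on day −2, 0.31 (SE 0.04, adjusted p = 1.12e-07) on day −1 and 0.42 (SE 0.04, adjusted p = 6.13e-10) on day 0. Actg2 encodes the gamma-actin of visceral smooth muscle (chromosome 6, 83512905 to 83536265, minus strand), and had the largest log2 fold change of the 33 tested genes on days −1 and 0. Its level on day −2 was 145, 137, 148, 141 and 140.0 CPM in the Kdm5c siRNA libraries, against 114, 119, 112, 115 and 122 CPM in the scramble libraries. Its day −1 level was 49.2, 40.9, 49.8, 50.2 and 52.8 CPM in the Kdm5c siRNA libraries, against 25.2, 29.4, 25.1, 23.9 and 21.96 CPM in the scramble libraries. On day 0 Actg2 was at 25.7, 25.1, 25.4, 25.4 and 25.1 CPM in the Kdm5c siRNA libraries, against 11.8, 10.1, 10.2, 9.92 and 10.5 CPM in the scramble libraries. The groups were apart on each day, and on day 0 the lowest Kdm5c siRNA library of Actg2 had more than the highest scramble library by a wide margin. Its log2 fold changes were 0.29 (SE 0.05, adjusted p = 3.2e-05) on day −2, 0.95 (SE 0.06, adjusted p = 1.02e-13) on day −1 and 1.27 (SE 0.07, adjusted p = 2.58e-14) on day 0. Acta1, the actin of skeletal muscle, ranged over 31.8 to 34.8 CPM in Kdm5c siRNA cells, against 30.9 to 34.5 CPM in scramble cells on day −2, and over 0.572 to 1.202 CPM in Kdm5c siRNA cells, against 0.398 to 0.986 CPM in scramble cells on day 0. The groups overlapped on every day and Acta1 was not called (log2 fold changes 0.02, 0.20 and 0.44, adjusted p = 0.864, 0.342 and 0.134). On day 0 a library had as few as 12 reads of Acta1. Without scramble replicate 5 of day 0 it would be called higher (adjusted p = 0.035).

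The cytoplasmic actins, which every cell makes, differed less. Actb, beta-actin (chromosome 5, 142903115 to 142906754, minus strand), was the most abundant gene of the group. On day −2 Actb was at 8714, 8666, 8674, 8480 and 8678 CPM in the Kdm5c siRNA libraries, against 8051, 8145, 8214, 8371 and 8282 CPM in the scramble libraries. Its values on day −1 were 6637, 6553, 6712, 6850 and 6848 CPM in the Kdm5c siRNA libraries, against 6144, 6164, 6128, 6319 and 6282 CPM in the scramble libraries. For day 0 they were 4884, 4773, 4812, 4819 and 4803 CPM in the Kdm5c siRNA libraries, against 4450, 4204, 4435, 4323 and 4233 CPM in the scramble libraries. Although the groups differed by little, they did not overlap on any day. Actb log2 fold changes were 0.08 (SE 0.02, adjusted p = 0.000872) on day −2, 0.12 (SE 0.02, adjusted p = 1.06e-06) on day −1 and 0.16 (SE 0.02, adjusted p = 1.64e-09) on day 0. Actg1, cytoplasmic gamma-actin, had log2 fold changes of 0.09, 0.06 and 0.10 (adjusted p = 0.00055, 0.0113 and 2.3e-05), and its day 0 levels were 589 to 606 CPM in Kdm5c siRNA cells, against 547 to 582 CPM in scramble cells. Its call on day −1 was lost when all genes with reads were tested (adjusted p = 0.0637) and without scramble replicates 1, 2 and 3 together (adjusted p = 0.182). Of the 50-base stretches of Actg1 exons 37.4% also occur in other annotated genes, mostly the pseudogene Gm12715, and of those of Actb 9.12%, so the handling of shared reads bears on both genes.

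Per kilobase of exon the 5 actins stood in the same order on days −2 and 0. On day −2, Actb, Acta2, Actg1, Actg2 and Acta1 averaged 3226, 1274, 346, 91.2 and 21.2 CPM per kb in Kdm5c siRNA cells, against 3065, 1138, 328, 74.9 and 20.97 CPM per kb in scramble cells. On day 0 the same genes averaged 1798, 319.7, 225, 16.3 and 0.568 CPM per kb in Kdm5c siRNA cells, against 1616, 240.0, 209.6, 6.75 and 0.418 CPM per kb in scramble cells. The muscle types (Acta1, Acta2 and Actg2 together) made up 27.7 to 28.1% of the actin total per kb in Kdm5c siRNA libraries of day −2, against 26.1 to 27.6% in scramble libraries. On day −1 their share was 15 to 16.8% in Kdm5c siRNA libraries, against 13.1 to 14.6% in scramble libraries. On day 0 it was 13.8 to 14.7% in Kdm5c siRNA libraries, against 11.7 to 12.3% in scramble libraries. The muscle-type share was thus higher in every Kdm5c siRNA library than in every scramble library of its day, and most of its fall over time lay between days −2 and −1. All 33 genes together took 2.71 to 2.75% of the reads of Kdm5c siRNA libraries on day −2, against 2.56 to 2.66% in scramble libraries. On day −1 they took 2.1 to 2.18% in Kdm5c siRNA libraries, against 1.99 to 2.02% in scramble libraries. On day 0 they took 1.61 to 1.67% in Kdm5c siRNA libraries, against 1.48 to 1.55% in scramble libraries.

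**Figure D2:**
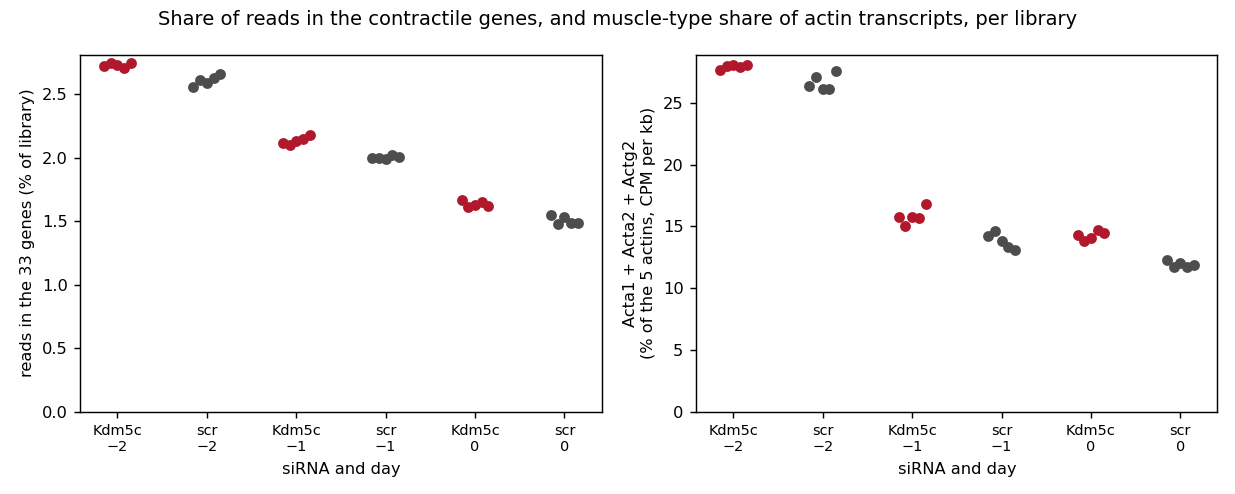
Left, reads in the 33 genes as a percentage of each library; right, Acta1, Acta2 and Actg2 as a percentage of the 5 actins in CPM per kb; each point is a library, red for Kdm5c siRNA and grey for scramble, with days running from −2 to 0. Both shares decline over the days (on the right, 26.1 to 28.1% on day −2 and 11.7 to 14.7% on day 0), and on each day the red points lie above the grey ones.

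Of the calponin family, Tagln stood out. It encodes transgelin (SM22 alpha), an actin-bundling protein and a marker of smooth muscle and myofibroblasts (chromosome 9, 45929619 to 45936058, minus strand). On day −2 Tagln was at 209, 211, 212, 208 and 214 CPM in the Kdm5c siRNA libraries, against 174, 182, 174, 179.7 and 196 CPM in the scramble libraries. On day −1 Tagln stood at 64.8, 57.8, 63.1, 65.6 and 78.5 CPM in the Kdm5c siRNA libraries, against 38.2, 40.2, 38.5, 36.4 and 35.3 CPM in the scramble libraries. On day 0 Tagln was at 35.3, 30.5, 34.4, 35.7 and 36.03 CPM in the Kdm5c siRNA libraries, against 20.4, 15.6, 16.5, 16.8 and 17.9 CPM in the scramble libraries. No library of the lower group reached the higher group on any day. The log2 fold changes of Tagln were 0.22 (SE 0.05, adjusted p = 0.00395) on day −2, 0.81 (SE 0.06, adjusted p = 2.05e-10) on day −1 and 0.98 (SE 0.08, adjusted p = 1.82e-10) on day 0. Tagln overlaps Pcsk7, which lies on the opposite strand and averaged 34.9 CPM. The libraries were strand-specific per the labels, but whether the counting used strand is not given in the sources used here. Tagln2, its relative in non-muscle cells, rose on days −1 and 0 (log2 fold changes 0.02, 0.11 and 0.09, adjusted p = 0.549, 0.000953 and 0.00419), and the day −1 call was lost without scramble replicates 1, 2 and 3 (adjusted p = 0.399). Cnn2, a calponin of non-muscle cells, was higher by 0.07, 0.10 and 0.09 on the log2 scale, and its day −2 call was lost without Kdm5c siRNA replicate 5 (adjusted p = 0.0739). Cnn3, the acidic calponin, fell on day 0, with 248 to 264 CPM in Kdm5c siRNA cells, against 264 to 279 CPM in scramble cells (log2 fold change −0.08 (SE 0.02, adjusted p = 0.00244)); 10.3% of its 50-base stretches occur elsewhere. Cnn1, the calponin of smooth muscle, did not meet the count table's filter of 1 CPM in 20 libraries and was tested in a fit to all 32318 genes with reads. It averaged 3.25 ± 0.207 CPM in Kdm5c siRNA cells and 2.52 ± 0.25 CPM in scramble cells on day −2 (SD, n = 5 each), and 0.445 ± 0.138 CPM in Kdm5c siRNA cells and 0.178 ± 0.0723 CPM in scramble cells on day 0. In that fit Cnn1 rose on days −1 and 0, with log2 fold changes of 0.74 (SE 0.19, adjusted p = 0.00188) and 1.29 (SE 0.33, adjusted p = 0.0016), and was at 0.37 (adjusted p = 0.065) on day −2.

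**Figure D3:**
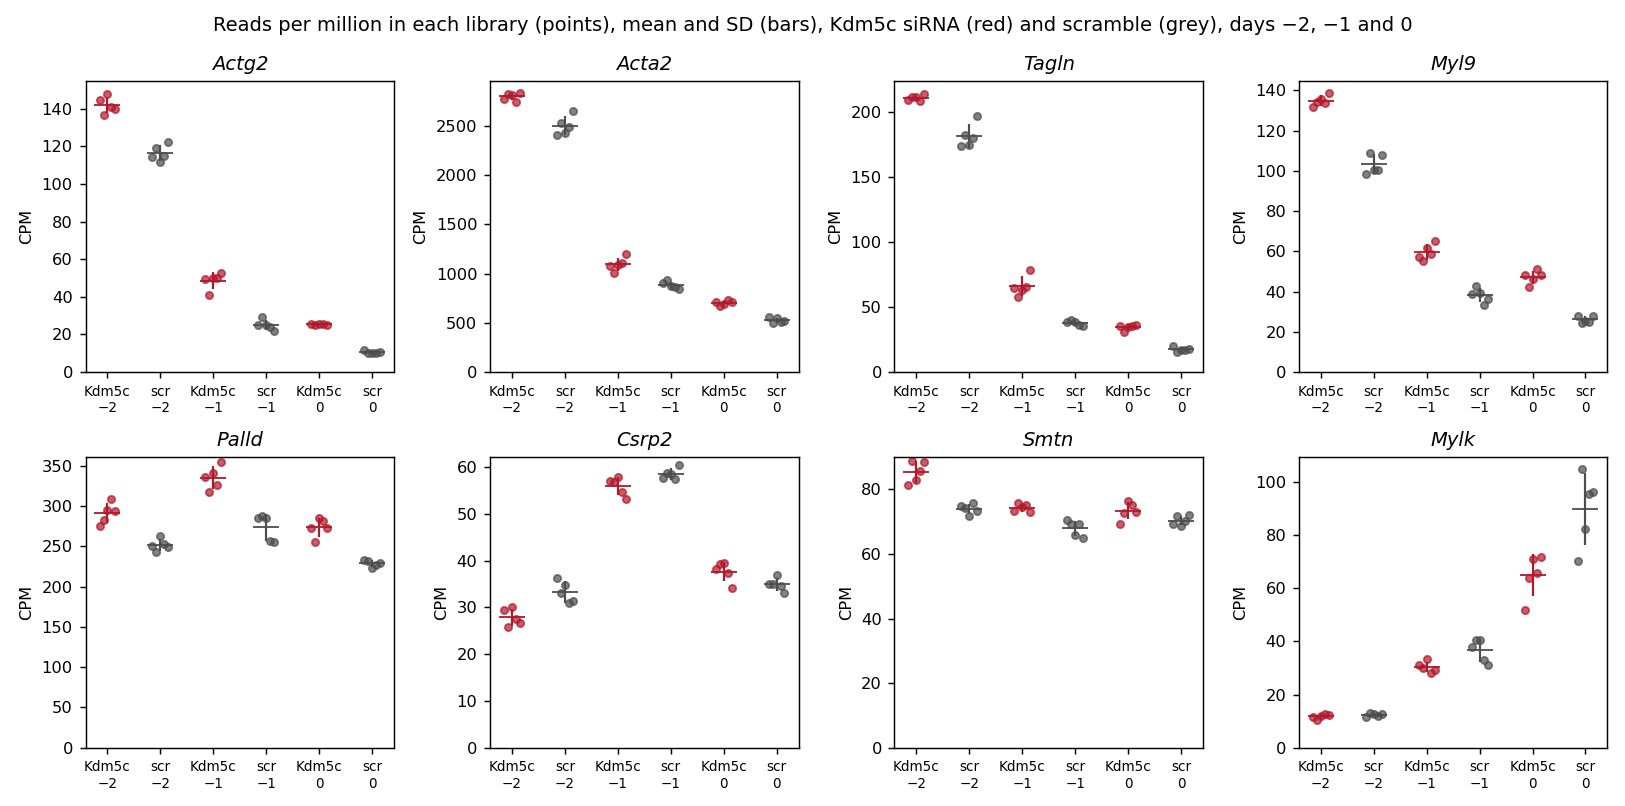
CPM of Actg2, Acta2, Tagln, Myl9, Palld, Csrp2, Smtn and Mylk in each of the 30 libraries (points, red for Kdm5c siRNA and grey for scramble), with the mean and SD of each group of 5, days −2, −1 and 0 from left to right and Kdm5c siRNA left of scramble. Actg2, Acta2, Tagln and Myl9 decline over the days with red above grey on each, while Mylk climbs with red below grey on days −1 and 0, where the libraries overlap.

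The myosin genes split. Myl9, the regulatory light chain of smooth muscle and non-muscle myosin II (chromosome 2, 156775420 to 156781658, plus strand), was higher with Kdm5c siRNA on each day. On day −2 Myl9 was at 132, 134, 136, 134 and 139 CPM in the Kdm5c siRNA libraries, against 98.5, 109, 100.4, 100.5 and 108 CPM in the scramble libraries. On day −1 Myl9 was at 56.98, 55.03, 61.6, 58.6 and 65.02 CPM in the Kdm5c siRNA libraries, against 39, 42.98, 39.5, 33.6 and 36.5 CPM in the scramble libraries. On day 0 Myl9 was at 48.1, 42.3, 46.1, 50.97 and 48.4 CPM in the Kdm5c siRNA libraries, against 27.9, 24.3, 25.5, 25.04 and 28.01 CPM in the scramble libraries. The groups did not overlap on any day. Its log2 fold changes were 0.39 (SE 0.05, adjusted p = 5.22e-07) on day −2, 0.64 (SE 0.05, adjusted p = 2.52e-10) on day −1 and 0.85 (SE 0.06, adjusted p = 2.79e-12) on day 0. Myl6, the essential light chain, was also higher on each day but by less (0.10, 0.10 and 0.17 on the log2 scale), with day 0 levels of 333 to 357 CPM in Kdm5c siRNA cells, against 295 to 315 CPM in scramble cells; 8.38% of its 50-base stretches occur in other genes. The heavy chains moved little. Myh10, the heavy chain of non-muscle myosin IIB, was at 414, 406, 399.6, 406 and 407 CPM in the Kdm5c siRNA libraries, against 414, 414, 396, 397 and 411 CPM in the scramble libraries on day −2. On day −1 Myh10 was at 439, 424, 414, 419 and 427 CPM in the Kdm5c siRNA libraries, against 398, 405, 407, 405 and 407 CPM in the scramble libraries. On day 0 Myh10 was at 383, 368, 376, 373 and 383 CPM in the Kdm5c siRNA libraries, against 345, 349.6, 348, 339 and 352 CPM in the scramble libraries. The day −2 groups overlapped and the other groups did not, with log2 fold changes of 0.01 (SE 0.02, adjusted p = 0.884) on day −2, 0.07 (SE 0.02, adjusted p = 0.00192) on day −1 and 0.12 (SE 0.02, adjusted p = 1.11e-06) on day 0. The day −1 call of Myh10 was lost without scramble replicates 1, 2 and 3 (adjusted p = 0.0572). Myh9, the heavy chain of myosin IIA and far more abundant at 2247 to 3545 CPM in a library, was called on no day (log2 fold changes 0.00, 0.02 and 0.05), though without scramble replicate 1 of day 0 it would be called higher there (adjusted p = 0.0473).

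Mylk is described beside these because it encodes the kinase of the Myl9 light chain; it was chosen for this after its values were seen. It rose over the days in both groups, and its day −2 levels were 10.5 to 12.9 CPM in Kdm5c siRNA cells, against 11.7 to 12.9 CPM in scramble cells. Its day −1 levels were 28.2 to 33.3 CPM in Kdm5c siRNA cells, against 31.02 to 40.7 CPM in scramble cells. On day 0 it had 52.01 to 71.6 CPM in Kdm5c siRNA cells, against 70.3 to 105 CPM in scramble cells. The Kdm5c siRNA libraries lay lower on days −1 and 0, with an overlap on each day. The log2 fold changes of Mylk were −0.06 (SE 0.14, adjusted p = 0.807) on day −2, −0.27 (SE 0.10, adjusted p = 0.0455) on day −1 and −0.47 (SE 0.09, adjusted p = 0.000248) on day 0. The day −1 call was lost without scramble replicate 1, 2 or 3 (adjusted p = 0.0842, 0.116 and 0.119), without Kdm5c siRNA replicate 1, 2, 4 or 5 (adjusted p = 0.0603, 0.0778, 0.0956 and 0.0871), and without those 3 scramble libraries together (log2 fold change −0.08, adjusted p = 0.734). The Mylk locus also gives the short protein telokin in smooth muscle, and counts per gene do not part the transcripts.

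Tropomyosins, the rod proteins along the filament, and caldesmon differed by small amounts: of the 5 genes, 4 rose on days −2 and −1, all but Tpm3, and all 5 rose on day 0. Tpm4 had the smallest adjusted p of them (chromosome 8, 72134975 to 72153142, plus strand). On day −2 Tpm4 was at 1159, 1205, 1167, 1200 and 1213 CPM in the Kdm5c siRNA libraries, against 1091, 1116, 1112, 1108 and 1141 CPM in the scramble libraries. Tpm4 on day −1 was at 950.4, 923, 957, 933 and 983 CPM in the Kdm5c siRNA libraries, against 891, 874, 868, 873 and 869 CPM in the scramble libraries. Its day 0 values were 656, 630.1, 653, 670.3 and 642 CPM in the Kdm5c siRNA libraries, against 583, 546, 564, 549.6 and 565 CPM in the scramble libraries. The groups of Tpm4 were apart on each day, and its log2 fold changes were 0.10 (SE 0.02, adjusted p = 0.000178) on day −2, 0.12 (SE 0.02, adjusted p = 4.94e-06) on day −1 and 0.21 (SE 0.02, adjusted p = 1.16e-11) on day 0. A copy, Gm7809, holds 11.7% of the 50-base stretches of Tpm4. Tpm1, the tropomyosin most tied to stress fibres, was higher by 0.06, 0.11 and 0.14 on the log2 scale, with day 0 levels of 494 to 546 CPM in Kdm5c siRNA cells, against 460.5 to 484 CPM in scramble cells. The day −2 call of Tpm1 was lost without scramble replicate 3 or 4 or Kdm5c siRNA replicate 2 or 5 (adjusted p = 0.0644, 0.0812, 0.0531 and 0.0945). Tpm2, beta-tropomyosin, was higher by 0.11, 0.12 and 0.19, and Cald1, caldesmon, which binds both actin and myosin, by 0.08, 0.08 and 0.12. Neither gene's groups overlapped on any day. Tpm3 was called on day 0 only, at 0.06 (SE 0.02, adjusted p = 0.0272), and lost the call without scramble replicate 2 or 5 or Kdm5c siRNA replicate 1 or 2 (adjusted p = 0.0844, 0.0697, 0.0962 and 0.111); 23.2% of its 50-base stretches are shared with Tpm3-rs7.

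The filament-binding genes of smooth muscle, Smtn, Lmod1 and Synpo2, were all 3 higher on day −2 and then parted. Smtn encodes smoothelin, a protein of contractile smooth muscle (chromosome 11, 3517523 to 3540612, minus strand). On day −2 Smtn was at 81.3, 88.9, 82.8, 85.6 and 88.4 CPM in the Kdm5c siRNA libraries, against 74.8, 74.2, 71.7, 75.7 and 73.4 CPM in the scramble libraries. On day −1 it stood at 73.2, 75.9, 74.4, 75.2 and 72.9 CPM in the Kdm5c siRNA libraries, against 70.4, 69.2, 65.7, 69.2 and 65.1 CPM in the scramble libraries. Smtn on day 0 was at 69.4, 72.8, 76.5, 75.2 and 73.2 CPM in the Kdm5c siRNA libraries, against 69.4, 71.7, 68.6, 70.1 and 71.95 CPM in the scramble libraries. The groups were apart on days −2 and −1 and overlapped on day 0. Its log2 fold changes were 0.21 (SE 0.03, adjusted p = 2.04e-07) on day −2, 0.13 (SE 0.03, adjusted p = 0.0003) on day −1 and 0.06 (SE 0.03, adjusted p = 0.0822) on day 0, and without Kdm5c siRNA replicate 1 of day 0 the day 0 value would be called (adjusted p = 0.0208). Lmod1, leiomodin, which nucleates filaments in smooth muscle, was low, at 5.01 to 6.08 CPM in Kdm5c siRNA cells, against 3.84 to 4.79 CPM in scramble cells on day −2, and 3.97 to 5.8 CPM in Kdm5c siRNA cells, against 2.63 to 3.41 CPM in scramble cells on day 0. It rose on those days, with log2 fold changes of 0.41 (SE 0.11, adjusted p = 0.0041) and 0.61 (SE 0.12, adjusted p = 7.53e-05), and was at 0.22 (SE 0.11, adjusted p = 0.113) on day −1, where scramble replicate 2 had the highest value of its group and the gene would be called without it (adjusted p = 0.011) or without scramble replicates 1, 2 and 3 together (adjusted p = 0.0222). Synpo2, a filament-bundling protein of muscle Z-discs and stress fibres, had only 19 to 75 reads in a library and was at 1.34 to 1.79 CPM in Kdm5c siRNA cells, against 0.8 to 1.14 CPM in scramble cells on day 0. Its log2 fold changes were 0.37 (SE 0.13, adjusted p = 0.0367) on day −2, 0.56 (SE 0.17, adjusted p = 0.00731) on day −1 and 0.66 (SE 0.16, adjusted p = 0.000985) on day 0. The day −2 call of Synpo2 was lost without scramble replicate 3, 4 or 5 (adjusted p = 0.0852, 0.123 and 0.0571) or Kdm5c siRNA replicate 2, 4 or 5 (adjusted p = 0.121, 0.0552 and 0.0895), and the day −1 call without scramble replicates 1, 2 and 3 (adjusted p = 0.0536).

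Srf, the transcription factor of this gene group, was not among the genes that rose. It was at 84.8 to 88.7 CPM in Kdm5c siRNA cells, against 92.2 to 96.7 CPM in scramble cells on day −2, where the groups did not overlap and Srf fell (log2 fold change −0.12 (SE 0.03, adjusted p = 0.00763)). On days −1 and 0 its log2 fold changes were −0.07 (adjusted p = 0.117) and −0.03 (adjusted p = 0.581), with day 0 levels of 47.7 to 52.1 CPM in Kdm5c siRNA cells, against 45.9 to 56.8 CPM in scramble cells. Of its coactivator genes, named here after their values were seen, Mrtfa had log2 fold changes of 0.06, 0.17 and 0.12 (adjusted p = 0.0464, 2.02e-07 and 0.000139) and Mrtfb −0.07, −0.02 and −0.06 (adjusted p = 0.0241, 0.573 and 0.0719). Mrtfa thus rose on each day, and Mrtfb fell on day −2.

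The LIM proteins, which carry signals between filaments, Z-discs and the nucleus, went both ways: of 7 genes, 4 rose and 1 fell on day −2, 3 rose on day −1 and 3 on day 0. Fhl2, a LIM-only protein of focal adhesions and the nucleus, was at 115, 119, 122, 117 and 118 CPM in the Kdm5c siRNA libraries, against 107, 108, 108, 107 and 114 CPM in the scramble libraries on day −2. On day −1 Fhl2 was at 104, 101, 103, 103 and 101 CPM in the Kdm5c siRNA libraries, against 90.8, 91.1, 91.9, 97.5 and 94.5 CPM in the scramble libraries. Fhl2 on day 0 was at 95.6, 84.6, 91.3, 101 and 89.03 CPM in the Kdm5c siRNA libraries, against 97.95, 95.1, 101, 94.2 and 87.95 CPM in the scramble libraries. The groups were apart on days −2 and −1 and mingled on day 0, with log2 fold changes of 0.12 (SE 0.03, adjusted p = 0.00306) on day −2, 0.14 (SE 0.03, adjusted p = 0.000426) on day −1 and −0.04 (SE 0.03, adjusted p = 0.34) on day 0. Without scramble replicates 1, 2 and 3 the day −1 call of Fhl2 was lost (adjusted p = 0.1). Pdlim5, a PDZ and LIM protein of the Z-disc, had 110.4, 122, 109, 112 and 112 CPM in the Kdm5c siRNA libraries, against 100.4, 107, 99.99, 103 and 101 CPM in the scramble libraries on day −2. On day −1 Pdlim5 had 118, 118, 124, 120.5 and 122 CPM in the Kdm5c siRNA libraries, against 112, 112, 120.2, 111 and 113 CPM in the scramble libraries. For day 0 it had 116, 110.3, 121, 116 and 119 CPM in the Kdm5c siRNA libraries, against 120.1, 113, 126, 114 and 122 CPM in the scramble libraries. Its groups were apart on day −2 only, with log2 fold changes of 0.16 (SE 0.03, adjusted p = 0.000136) on day −2, 0.09 (SE 0.03, adjusted p = 0.021) on day −1 and −0.03 (SE 0.03, adjusted p = 0.525) on day 0. The day −1 call of Pdlim5 was lost without Kdm5c siRNA replicate 3 or 5 (adjusted p = 0.0582 and 0.0539).

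Csrp2, a cysteine-rich LIM protein of vascular smooth muscle, was the only gene of the group called lower on 1 day and higher on another. Csrp2 on day −2 was at 29.4, 25.7, 29.97, 27.5 and 26.6 CPM in the Kdm5c siRNA libraries, against 36.2, 33.02, 34.9, 30.8 and 31.4 CPM in the scramble libraries. On day −1 Csrp2 was at 57.1, 56.8, 57.9, 54.5 and 53.2 CPM in the Kdm5c siRNA libraries, against 57.7, 58.7, 58.5, 57.3 and 60.4 CPM in the scramble libraries. Its values on day 0 were 38.1, 39.2, 39.4, 37.3 and 34.2 CPM in the Kdm5c siRNA libraries, against 34.9, 34.97, 37, 34.5 and 33.1 CPM in the scramble libraries. The groups were apart on day −2, with Kdm5c siRNA lower, and overlapped afterwards. The log2 fold changes of Csrp2 were −0.25 (SE 0.04, adjusted p = 2.14e-05) on day −2, −0.07 (SE 0.04, adjusted p = 0.197) on day −1 and 0.11 (SE 0.04, adjusted p = 0.0321) on day 0. The day 0 call was lost without scramble replicate 4 or 5 (adjusted p = 0.0557 and 0.0966) or Kdm5c siRNA replicate 1, 2 or 3 (adjusted p = 0.0548, 0.0897 and 0.0877). Lima1, or EPLIN, which stabilises filaments, was at 339, 332, 353, 355 and 351 CPM in the Kdm5c siRNA libraries, against 369, 361, 361, 351 and 347 CPM in the scramble libraries on day −2. On day −1 Lima1 was at 414, 414, 423, 429.8 and 419 CPM in the Kdm5c siRNA libraries, against 422, 416, 419, 420.2 and 404 CPM in the scramble libraries. On day 0 Lima1 was at 423, 409.8, 421, 427 and 433 CPM in the Kdm5c siRNA libraries, against 393, 415, 396, 398 and 408 CPM in the scramble libraries. The Lima1 groups overlapped on each day, and it was called on day 0 (log2 fold changes −0.04 (SE 0.02, adjusted p = 0.14) on day −2, 0.01 (SE 0.02, adjusted p = 0.647) on day −1 and 0.08 (SE 0.02, adjusted p = 0.00484) on day 0). Fhl1, a LIM-only protein of skeletal muscle, was higher with Kdm5c siRNA on days −2 and −1 (log2 fold changes 0.17, 0.45 and 0.26, adjusted p = 0.0362, 0.000399 and 0.192), at 4.59 to 6.701 CPM in Kdm5c siRNA cells, against 3.72 to 4.72 CPM in scramble cells on day −1. Its day −2 call was lost without scramble replicate 1, 2, 3 or 4 (adjusted p = 0.0561, 0.069, 0.0528 and 0.107) or Kdm5c siRNA replicate 2 or 3 (adjusted p = 0.0716 and 0.103), and its day −1 call without scramble replicates 1, 2 and 3 (adjusted p = 0.0517). Ablim1, an actin-binding LIM protein, was higher on days −2 and 0, by 0.15 and 0.10 on the log2 scale (adjusted p = 0.000253 and 0.00634). Csrp1 was called on no day (log2 fold changes −0.04, −0.06 and 0.04).

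Palld encodes palladin, a scaffold of stress fibres and focal adhesions (chromosome 8, 61511433 to 61902690, minus strand), and was higher on each day. On day −2 Palld was at 275, 283, 295, 309 and 294 CPM in the Kdm5c siRNA libraries, against 249.7, 243, 262, 253 and 248 CPM in the scramble libraries. On day −1 Palld was at 336, 317, 341, 326 and 354 CPM in the Kdm5c siRNA libraries, against 284, 287, 284, 256 and 255 CPM in the scramble libraries. Day 0 values of Palld were 273, 255, 284, 282 and 273 CPM in the Kdm5c siRNA libraries, against 233, 232, 223, 227 and 229 CPM in the scramble libraries. The groups did not overlap, with log2 fold changes of 0.22 (SE 0.04, adjusted p = 2.53e-05) on day −2, 0.30 (SE 0.04, adjusted p = 5.83e-08) on day −1 and 0.26 (SE 0.04, adjusted p = 8.07e-07) on day 0. Scramble replicates 4 and 5 of day −1 were the lowest of their group, and without the other 3 the day −1 value was 0.39. Cfl1, cofilin, which severs filaments, was called on day 0 only, at 0.07 (SE 0.02, adjusted p = 0.00197), with levels of 1219 to 1279 CPM in Kdm5c siRNA cells, against 1177 to 1222 CPM in scramble cells; 7.25% of its 50-base stretches occur in other genes. Pfn1, profilin, which feeds monomer to growing ends, was called on no day (log2 fold changes −0.07, −0.02 and −0.06), with 447 to 491 CPM in Kdm5c siRNA cells, against 456 to 585 CPM in scramble cells on day 0, where scramble replicate 1 stood far above its group.

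Whether the siRNA effect differed between days 0 and −2 was tested as an interaction in the same model, which uses the day 0 and day −2 libraries of both siRNAs. The effect became more positive in 9 genes and more negative in 3, beside 9.85% and 5.73% of all genes, with a median change of 0.08 and of 0.01 over all genes. Positive changes on the log2 scale were 0.98 (SE 0.09, adjusted p = 2.53e-09) for Actg2, 0.76 (SE 0.10, adjusted p = 3.73e-06) for Tagln, 0.46 (SE 0.08, adjusted p = 8.56e-05) for Myl9 and 0.25 (SE 0.05, adjusted p = 0.00124) for Acta2. For these 4 genes the positive effect of day −2 was thus larger on day 0 as a ratio, while the gap in mean CPM was smaller. Acta2 averaged 2798 CPM with Kdm5c siRNA against 2500 with scramble on day −2, and 702 against 527 CPM on day 0. The change of Csrp2 was 0.37 (SE 0.06, adjusted p = 2.87e-05), a negative effect on day −2 and a positive one on day 0. Smaller positive changes were found for Tpm4 (0.12), Myh10 (0.12), Lima1 (0.12) and Actb (0.08). That of Actb was lost without scramble replicate 4 or Kdm5c siRNA replicate 4 of day −2 (adjusted p = 0.052 and 0.053) or scramble replicate 2 or 5 of day 0 (adjusted p = 0.0616 and 0.0553). Negative changes were −0.18 (SE 0.04, adjusted p = 0.00213) for Pdlim5, −0.16 (SE 0.04, adjusted p = 0.00828) for Fhl2 and −0.15 (SE 0.04, adjusted p = 0.00833) for Smtn, 3 genes that rose on day −2 and were not called on day 0. The change of Mylk was −0.41 (SE 0.17, adjusted p = 0.0978), and it would pass under DESeq2 (adjusted p = 0.0353) or without scramble replicate 1 of day 0 (adjusted p = 0.0192).

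The time course in scramble cells shows what these effects were set against. Most contractile genes declined on each day of the approach to differentiation: between days −1 and −2, 24 of the 33 genes fell and 7 rose, beside 39.3% and 39.4% of all genes, and between days 0 and −1, 25 fell and 3 rose, beside 37.7% and 36.6%. Over the 48 h from day −2 to day 0, 27 fell and 4 rose, beside 43.6% and 44.6% of all genes. In 19 of the 33 genes the change passed 1.5-fold, beside 40.4% of all genes, and the median log2 fold change was −0.66, that of all genes 0.004. Acta1 averaged 32.2, 1.47 and 0.642 CPM in scramble cells on days −2, −1 and 0, a log2 fold change of −5.68 for day 0 over day −2. Fhl1 averaged 31.2, 4.005 and 1.57 CPM on the same days (−4.34). The smooth muscle genes Actg2, Tagln, Acta2 and Myl9 came next, with −3.51, −3.41, −2.28 and −2.02, while the cytoplasmic actins Actb and Actg1 had −0.96 and −0.68 and Srf −0.92. Tpm1, Tpm2, Tpm3 and Tpm4 lay between −1.03 and −0.66, Pfn1 was at −0.88, Cfl1 at −0.75 and Myh9 at −0.59. The 4 genes that rose were Mylk, at 2.82, and by far less Pdlim5, Lima1 and Ablim1, at 0.18, 0.13 and 0.10. Csrp2 peaked in between, with means of 33.3, 58.5 and 34.9 CPM on the 3 days, and Cnn3 changed by 0.04 (adjusted p = 0.0948).

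In Kdm5c siRNA cells most of the genes declined as well: 27 genes fell and 3 rose from day −2 to day 0, beside 43.5% and 43.8% of all genes, with a median log2 fold change of −0.55. Actg2, Tagln, Acta2 and Myl9 had −2.53, −2.66, −2.04 and −1.56 in Kdm5c siRNA cells, against −3.51, −3.41, −2.28 and −2.02 in scramble cells. These differences are the tested changes of the siRNA effect given before. Mylk had 2.41 in Kdm5c siRNA cells, against 2.82 in scramble cells. Of the genes with the steepest decline, Acta1 and Fhl1 had −5.26 and −4.25 in Kdm5c siRNA cells, against −5.68 and −4.34 in scramble cells, and the change of their siRNA effects was not called (adjusted p = 0.247 and 0.769). The scramble libraries serve both this time course and the siRNA comparisons, so the values of a gene in both kinds of comparison are not independent.

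**Figure D4:**
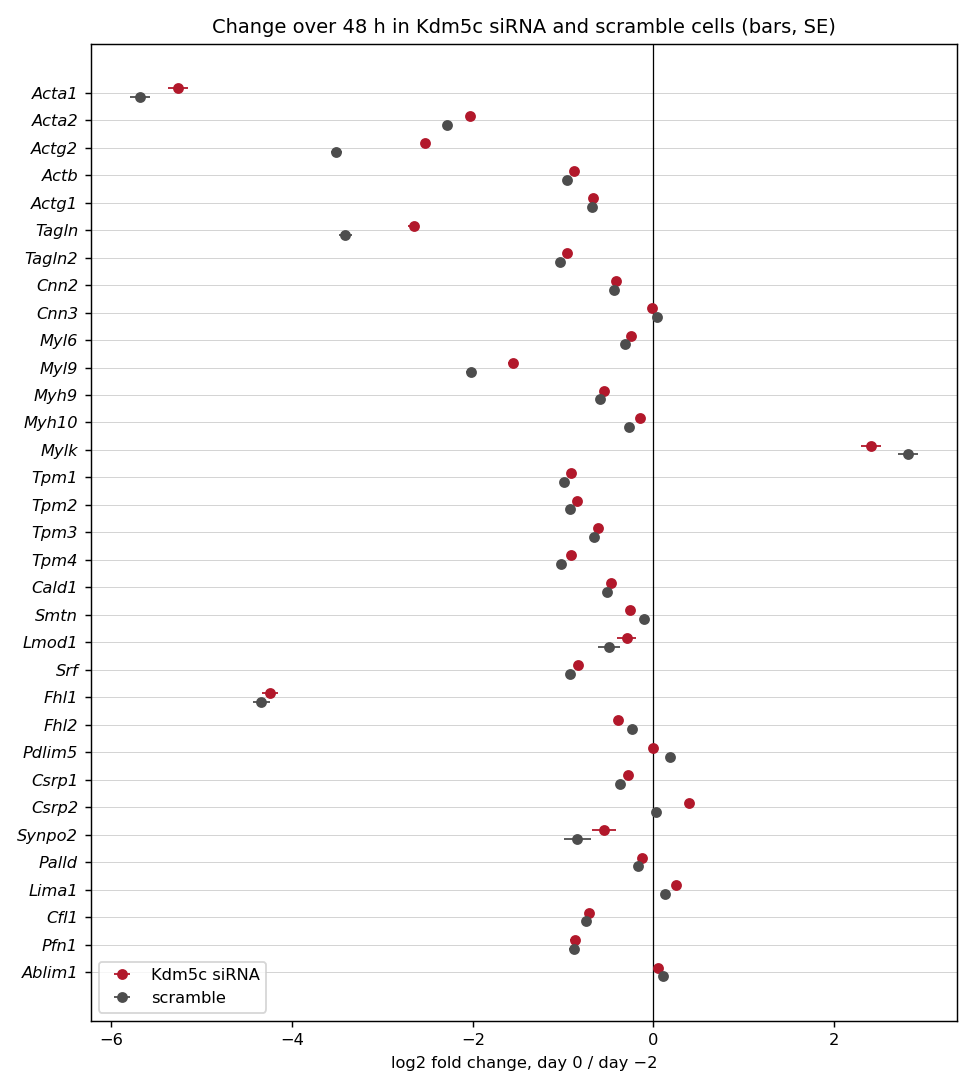
Log2 fold change of the 33 genes, day 0 over day −2, in Kdm5c siRNA cells (red) and scramble cells (grey), with bars for the SE. Most genes lie left of 0 in both; Actg2, Tagln, Acta2 and Myl9 lie less far left in red (−2.53 against −3.51 for Actg2), and Mylk is the only gene far right of 0.

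Other genes of the actin system were read from 6 lists without these 34 genes; over all genes, 11.2, 18.8 and 19.2% rose and 11.8, 16.8 and 15.7% fell on days −2, −1 and 0, and the medians lay within 0.003 of 0. In the list of MRTF and SRF factors and targets, 10, 11 and 13 of 21 measured genes rose on days −2, −1 and 0, and 2 fell on each day, with median log2 fold changes of 0.10, 0.11 and 0.13. Ankrd1, a target induced by stretch, was at 7.06 CPM in Kdm5c siRNA cells, against 4.19 CPM in scramble cells on day 0 (log2 fold changes 0.76, 1.36 and 0.75 on the 3 days). Flna, the filament crosslinker filamin A, was at 2880 CPM in Kdm5c siRNA cells, against 2350 CPM in scramble cells (0.10, 0.21 and 0.29), and Vcl, vinculin of focal adhesions, was higher by 0.19 on day 0. The integrin genes Itgb1 and Itga5 were higher by 0.19 and 0.16 on day −1, and the focal adhesion gene Zyx by 0.20 on day −2. Of 20 genes of crosslinking and bundling, a list that also holds Flna, 8, 11 and 10 rose on the 3 days and 2, 2 and 1 fell (medians 0.06, 0.07 and 0.10). Alpha-actinin genes Actn1 and Actn4 were higher by 0.17 and 0.15 on day 0, the fimbrin gene Pls3 by 0.24 and synaptopodin (Synpo) by 0.23 on day −2, while Flnc, the muscle filamin, was at −0.10 and −0.14 on days −2 and −1. Of 20 genes of RhoA, ROCK and myosin phosphatase, 7, 8 and 8 rose and 2 fell on each day (medians 0.04, 0.04 and 0.05). Ppp1cb, the catalytic subunit of myosin phosphatase, was higher by 0.16 on day −2. The kinase gene Rock2 was higher by 0.13 on day −1, and the RhoGAP gene Arhgap5 was at −0.17 on day 0. Of 19 genes of severing, capping and monomer binding, 4, 5 and 6 rose and 1, 5 and 1 fell (medians 0.03, 0.01 and 0.05). Tmsb4x, thymosin beta 4, which holds monomer, was at 230.0 CPM in Kdm5c siRNA cells, against 189 CPM in scramble cells on day 0 (0.29), and the cofilin relative Dstn was higher by 0.22. Ssh2, a phosphatase that activates cofilin, was at 41.2 CPM in Kdm5c siRNA cells, against 58 CPM in scramble cells on day 0 (−0.49 (SE 0.04, adjusted p = 1.75e-13)). Of 21 genes of nucleation and elongation, 2, 4 and 8 rose and 2, 5 and 4 fell (medians 0.02, 0.03 and 0.05). The Arp2/3 subunit gene Arpc1b was at −0.13, −0.20 and −0.09 and cortactin (Cttn) higher by 0.15 on day 0. Of 9 other myosin genes, edgeR called 0 on day −2, where 5 had an unadjusted p under 0.05 and DESeq2 called 1 higher. Of the same 9, 2 rose and 2 fell on day −1 and 5 rose and 1 fell on day 0 (medians −0.04, −0.02 and 0.07 on the 3 days), Myo18a at 0.15 and Myo6 at −0.19 on day 0.

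The summed levels of marker lists were set beside these results, without a test. The smooth muscle list, 5 of whose 8 markers belong to the contractile genes themselves, summed to 238 to 244 CPM in Kdm5c siRNA libraries of day −2, against 193 to 206 CPM in scramble libraries. On day 0 it summed to 108 to 114 CPM in Kdm5c siRNA libraries, against 88.5 to 92.8 CPM in scramble libraries. The outside markers of that list were low: Myh11, smooth muscle myosin, was at 0.107 to 0.722 CPM, Des, desmin, at 1.17 to 6.1 CPM, and Myocd had 1 read in all. Of 8 markers of skeletal and cardiac muscle, only the troponin gene Tnnt2 reached 1 CPM, at 26.2 to 113 CPM over the libraries, and Myod1 and Myh6 had 0 reads. That list summed to 51.1 to 60.3 CPM in Kdm5c siRNA libraries of day 0, against 26.3 to 33.9 CPM in scramble libraries. Nearly all of it was Tnnt2, and its part in the contractile results was not tested. Mature adipocyte markers summed to 86.1 to 92.5 CPM in Kdm5c siRNA libraries of day 0, against 80.7 to 86.7 CPM in scramble libraries. Over all libraries Pparg was at 37.6 to 56 CPM, Fabp4 at 9.73 to 35.1, Lipe at 5.29 to 13.5 and Cebpa at 1.3 to 6.9. Adipoq and Plin1 were at most at 0.159 and 0.143 CPM. The fibroblast and preadipocyte markers summed to 28000 to 29700 CPM in Kdm5c siRNA libraries of day −2, against 26700 to 27700 CPM in scramble libraries, which did not overlap. On day −1 they summed to 30300 to 32300 CPM with Kdm5c siRNA, against 28700 to 31700 CPM with scramble. On day 0 they summed to 34400 to 38600 CPM with Kdm5c siRNA, against 36300 to 39900 CPM with scramble. Of 6 macrophage markers, 2 reached 1 CPM, Csf1r at 0.89 to 7.48 CPM and Cd68 at 1.16 to 4.17 CPM over the libraries. Adgre1 was at 0 reads and Ptprc at most at 0.0985 CPM. The 6 markers summed to 6.41 to 9.12 CPM in Kdm5c siRNA libraries of day −2, against 5.03 to 7.44 CPM in scramble libraries. On day 0 their sum was 3.93 to 5.7 CPM in Kdm5c siRNA libraries, against 2.67 to 3.39 CPM in scramble libraries, with no overlap. The part of the fibroblast markers in the contractile results was not tested.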

How the data were processed

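Messenger RNA of 30 3T3-L1 libraries in 6 groups of 5 had been sequenced with a strand-specific kit (NuGEN Universal plus mRNA-Seq, per the labels). The submitters' processing notes name STAR 2.7.2a, edgeR 3.26.8 and GRCm38; the counting tool, its annotation and its strand setting are unstated, that is, not given in the sources used here. CPM of the authors cover 55573 genes and were whole reads divided by the library total (100.0% within 0.05 reads). Raw counts were deposited for 12016 of them, the genes reaching 1 CPM in no fewer than 20 libraries. Library totals were 25217905 to 33725717 reads.

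The deposited counts were fitted with edgeR 4.0.16 (R 4.3.3) by robust quasi-likelihood with TMM scaling, the totals as library sizes, and a mean for each of the 6 groups, all 30 libraries in 1 model (24 residual degrees of freedom, common biological coefficient of variation 0.0367). Two-sided p-values were adjusted by Benjamini-Hochberg over all genes of a comparison, with a call at an adjusted p under 0.05. Fold changes and SEs are from this model, and CPM are printed as deposited. Replicate pairs differed by more than sampling noise (chi-square per degree of freedom 1.64 to 9.09), so no library was counted as a copy. The procedure was tested on simulated counts.

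The members and lists, and the libraries set apart, were chosen with earlier results of these data known. Values in every library are given for the genes among the 6 with the smallest adjusted p in a siRNA comparison or called in the change of effect, and ranges for the others; per list of other actin genes, no more than 4 called genes, by smallest adjusted p, were named for a comparison. For genes named otherwise the text says so. Alternatives were limma 3.58.1 on log2(CPM + 0.1, 0.5 or 2), DESeq2 1.42.0, other scalings, no filter (32318 genes), a stricter filter (CPM of at least 5 in 5 libraries, 10647 genes), only the libraries of a comparison, a replicate block, non-robust estimation and each library left out in turn. Coordinates and exon lengths (all exons of a gene merged, which understates genes with many isoforms) are GENCODE M21 (GRCm38), and shared stretches are 50-base runs of a gene's exons found in other annotated transcripts.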

Additional observations from a re-analysis of the deposited data

Results flagged for a closer look

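Of 198 groups of 5 libraries (33 genes in 6 groups), 12 held a library far from the other 4 by Dixon's test, which chance does in about 1 group in 20. In Kdm5c siRNA cells of day −2 these were Acta1 in replicate 3 at 34.79 CPM, Actb in replicate 4 at 8480 CPM and Pdlim5 in replicate 2 at 122.3 CPM. Replicate 3 of Kdm5c siRNA on day −1 had 105.7 CPM of Tpm2. Scramble replicate 5 of day −2 had 113.8 CPM of Fhl2. In scramble cells of day −1, replicate 1 had 397.7 CPM of Myh10 and 891.3 CPM of Tpm4, replicate 2 had 1786 CPM of Cald1 and 83.71 CPM of Ablim1, replicate 3 had 120.2 CPM of Pdlim5 and replicate 5 had 403.5 CPM of Lima1. Scramble replicate 1 of day 0 had 585.2 CPM of Pfn1.

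In 12 genes the effect of the Kdm5c siRNA differed between day 0 and day −2 by the interaction test. The difference of log2 fold changes was 0.98 for Actg2, 0.76 for Tagln, 0.46 for Myl9, 0.37 for Csrp2 and 0.25 for Acta2, and 0.12 each for Myh10, Tpm4 and Lima1 and 0.08 for Actb. It was negative for Smtn, Fhl2 and Pdlim5, at −0.15, −0.16 and −0.18.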

How the results depend on the processing

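Of the 132 results for single genes (33 genes in 4 comparisons), 108 kept their side of the threshold under every alternative run. Direction was compared only where a result was called, and some uncalled results changed sign, such as Pfn1 on day −1 (−0.04 to 0.05). Of the 79 called among the 132, 64 kept the call, and 0 reversed. Day −1 had 1 gene lower, 0 without a filter, 2 with only the libraries of the comparison, 0 without scramble replicates 1, 2 and 3 together (chosen with earlier results of these data known) and 0 to 1 with 1 library left out. Genes higher on scramble day −1 than on day −2 numbered 7, 4 without a filter, 4 without those 3 libraries and 6 to 7 with 1 library left out. Those higher on scramble day 0 than on day −1 numbered 3, 1 under limma with each pseudocount, 1 with library totals alone and 3 to 4 with 1 library left out. In Kdm5c siRNA cells, 3 genes were higher on day 0 than on day −2, 5 with upper-quartile scaling and 3 to 4 with 1 library left out. For these counts the cause was not tested. Beside the losses given with the genes, limma on log2(CPM + 0.5) ended the day −2 calls of Fhl1 and Tpm1 (adjusted p = 0.257 and 0.0511) and the day 0 call of Csrp2 (adjusted p = 0.0509), and no filter ended those of Tpm1 and Synpo2 on day −2, Mylk on day −1, Tpm3 on day 0 and the change of Actb (adjusted p = 0.0526, 0.131, 0.0971, 0.15 and 0.0944). With each of the 30 libraries left out in turn, 17 to 20, 19 to 21 and 20 to 23 genes were higher with Kdm5c siRNA on days −2, −1 and 0, and the effect became more positive in 8 to 11 and more negative in 3 to 4. Other scalings moved the median of all genes by at most 0.073. On day −1 all genes called numbered 4268, and 2555 without those 3 libraries. Replicate numbers did not pair the libraries: deviations of same-numbered groups correlated above 0.1 in 5 of 15 pairs (−0.363 to 0.416), and a replicate block left 20 higher and 2 lower on day −2, 20 and 1 on day −1 and 22 and 2 on day 0. Genes with few reads, such as Synpo2, Acta1 and Cnn1, limit what can be detected.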
